A study of Mus musculus with 6 samples.

Results

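The genes described here are 8 cathepsins (Ctss, Ctsl, Ctsb, Ctsd, Ctsz, Ctsh, Ctsc and Ctsk), the asparaginyl endopeptidase legumain (Lgmn) and the cysteine protease inhibitor cystatin C (Cst3). They were chosen by symbol, and all 10 were found among the 55487 genes of the count tables and passed the filter on low counts. They were measured in tumour-associated macrophages from Lewis lung carcinoma, a mouse lung cancer cell line injected under the skin of the right flank of C57BL/6 mice. Tumours were taken after 15 to 17 days, and all libraries share this host, tumour and sort: CD11b and F4/80 on the surface, Ly6C and Ly-6G absent. The cells were then divided by surface MHC class II, and 3 libraries carry the label MHC-II high and 3 the label MHC-II low, with batch numbers 1 to 3 in each. The labels give neither the age of the mice nor the number behind a library.

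Cathepsins are proteases of endosomes and lysosomes that degrade endocytosed proteins and, when released, extracellular matrix. In antigen-presenting cells they trim the invariant chain Cd74 off new MHC class II molecules and cut antigens into peptides. Cathepsin S takes the last steps of invariant chain removal in dendritic cells and many macrophages, and cathepsin L does so in the thymic cortex. Legumain cuts after asparagine and also activates other cathepsins, while cystatins bind the active site of cysteine cathepsins.

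The bases before the annotated starts of Ctss, Ctsk and Ctsd are shown because Ctss and Ctsk are neighbours on chromosome 3 whose reads are compared within libraries, and because Ctsd holds the core site of lysosomal gene regulators. They come from RefSeq's promoter windows on GRCm38.p6, cut back to bases outside annotated exons, at chr3:95526536-95526785 for Ctss, chr3:95498960-95499209 for Ctsk and, on the minus strand, chr7:142388039-142388077 for Ctsd. Capitals mark a match to the interferon-stimulated response element (GAAA, any 2 bases, GAAA) in Ctss and to the E-box CACGTG, bound by TFEB and its relatives, in Ctsd.
Ctss: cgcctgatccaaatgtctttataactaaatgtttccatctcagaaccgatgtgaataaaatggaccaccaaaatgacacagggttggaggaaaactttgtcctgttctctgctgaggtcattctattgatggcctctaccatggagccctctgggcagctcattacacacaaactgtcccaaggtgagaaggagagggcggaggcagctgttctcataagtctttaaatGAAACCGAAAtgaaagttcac
Ctsk: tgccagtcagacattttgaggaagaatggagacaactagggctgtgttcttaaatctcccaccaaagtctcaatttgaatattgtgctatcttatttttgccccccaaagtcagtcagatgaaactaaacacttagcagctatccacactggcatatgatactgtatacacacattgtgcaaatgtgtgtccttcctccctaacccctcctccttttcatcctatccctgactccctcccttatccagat
Ctsd: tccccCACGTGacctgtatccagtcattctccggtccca
Windows of 250 bases before the start were matched for 8 of the 10 genes, and Ctsb and Ctsh were not matched. On either strand the interferon element was found in Ctss alone of these genes and in 2.98% of 32851 promoter windows. CACGTG was found in Ctsl, Ctsd and Lgmn and in 6.02% of all windows. The 8 genes had 9 windows, and Lgmn also had a window without CACGTG. The sites of Ctsl and Lgmn, and a further one of Ctsd, lie inside the annotated gene spans rather than before them. GAGGAAGT, a form of the PU.1 site, was found in Ctsc and in 2.44% of all windows, and the AP-1 site TGANTCA in none of the 8 genes and in 6.75% of all windows. A match describes letters in a window, and whether any factor binds there was not measured.

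The 2 labels stand opposite to the transcripts of MHC class II. H2-Aa, which encodes one chain of the I-A molecule, had 5.52 ± 1.1 CPM (CPM being reads relative to the library's reads in genes, scaled by TMM; SD, n = 3) in the libraries with the high label. With the low label it had 1350 ± 172 CPM, 244-fold more as a ratio of means. Each direction given is therefore that of the libraries as labelled. Reads in genes ranged from 10202879 to 25473051 per library. The library labelled low replicate 3 stood apart, with 47.3% of its reads in an rRNA copy against 3.85% to 13.5% elsewhere. The members had 1013 to 10842 reads each in that library and 2078 to 57373 in the others, so counting error was small beside the spread between libraries.

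All members are protein-coding genes, and their reads were counted over whole genes. On GRCm38, Ctsl spans chr13:64359337-64370890, Ctsb chr14:63122462-63145923, Ctsd chr7:142375911-142388038 and Ctsz chr2:174427493-174439039. Ctsh spans chr9:90054152-90076089, Ctsc chr7:88278085-88310888, Lgmn chr12:102394084-102439813 and Cst3 chr2:148871722-148875692. The placental relatives of Ctsl that lie near it on chromosome 13, such as Ctsj and Ctsq, had 0 reads in all libraries.

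No protease or inhibitor gene of the 10 passed the test between the labels. By edgeR's quasi-likelihood test, with an adjusted p under 0.05 as the threshold, 0.446% of all 14140 tested genes were called (0.0919% higher and 0.354% lower with the high label) and 0 of the 10. An unadjusted p under 0.05 was reached by 4 of the 10, and by 12.1% of all tested genes. Fold changes, given as log2 of labelled high over labelled low, were positive for 6 and negative for 4, with a median of 0.11 against -0.02 over all tested genes. CPM ranges of the 2 labels did not overlap for 3 of the 10, against 19.9% of all tested genes: Ctss and Ctsl, higher with the high label as were 10.5% of all, and Ctsh, lower as were 9.48%.

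**Figure D1:**
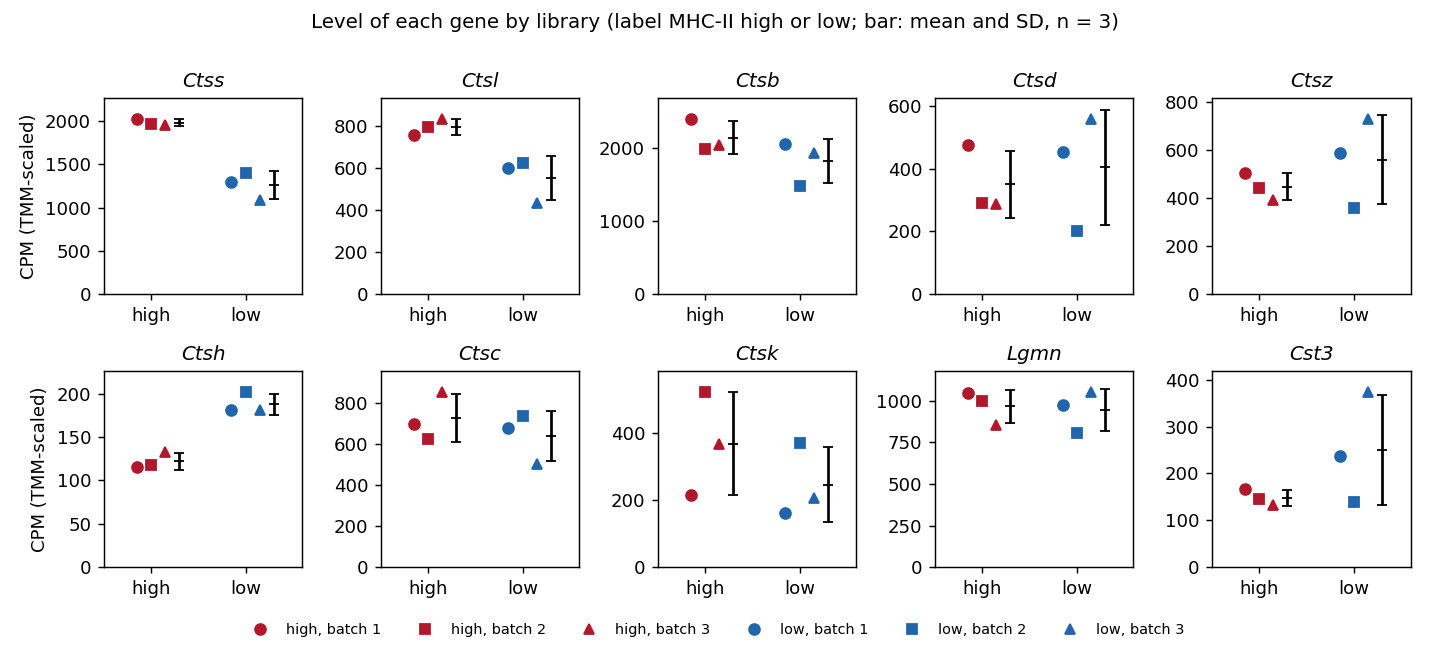
CPM of each of the 10 genes (vertical axis, from 0) in 3 labelled high and 3 labelled low libraries, with a symbol per batch and a bar for mean and SD. Ctss and Ctsl lie higher in every labelled high library, Ctsh lies lower in every one, and the other 7 overlap.

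Cathepsin S, the elastase-like protease that works at neutral as well as acid pH, was higher with the high label in every batch without passing the test. Ctss stood at 2025, 1962 and 1956 CPM in labelled high replicates 1 to 3 and at 1294, 1401 and 1087 CPM in their labelled low counterparts. The labelled high libraries lay close together and all above the labelled low ones. The means were 1981 ± 38 and 1261 ± 160 CPM (SD, n = 3 each), a log2 fold change of 0.65 with a 95% interval from 0.23 to 1.07 and an adjusted p of 0.242. Within batches 1, 2 and 3 the log2 ratio was 0.65, 0.49 and 0.85. The adjusted p fell under the threshold with DESeq2 (0.0249, where 2.81% of genes were called, 0.856% higher and 1.96% lower) and without labelled low replicate 2 (0.0492, where 7.16% were called, 1.71% higher and 5.45% lower). Over all alternatives the adjusted p of Ctss ran from 0.0249 to 0.848. Cd74, the invariant chain that cathepsin S cuts, was called in the other direction (log2 fold change -6.64, adjusted p 0.000577): it had 30.6 ± 4.9 CPM with the high label and 3049 ± 1318 CPM with the low label. Reads of Ctss per read of Cd74 in the same library were 56.4, 75.2 and 65.5 with the high label and 0.409, 0.835 and 0.252 with the low label. Most of the difference in this ratio is that of Cd74, a partner of the molecules by which the cells were divided.

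Cathepsin L, a broad endopeptidase close to cathepsin S in sequence family, followed Ctss. Ctsl stood at 754, 794 and 831 CPM with the high label, against 601, 620 and 431 CPM with the low label, in the order of replicates. No labelled low library reached the labelled high ones, and labelled low replicate 3 was the lowest of all. The log2 fold change was 0.53 with a 95% interval from 0.07 to 0.98 and an adjusted p of 0.384. With the GC offset, which takes out each library's trend of CPM over the GC content of genes, it was 0.28. Log2 CPM of Ctsl and Ctss had a Pearson correlation of 0.95 over the 6 libraries, a description of points that share depth and base composition trends. Reads of Ctss per read of Ctsl lay between 2.35 and 2.68 with the high label and between 2.15 and 2.52 with the low label, and these ranges overlap.

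Cathepsin H, an aminopeptidase that removes residues from the end of peptides, was the member with a lower range with the high label. Ctsh stood at 116, 117 and 133 CPM in labelled high replicates 1 to 3 and at 181, 202 and 181 CPM in their labelled low counterparts. The spread inside each label was small, and a gap lay between them in every batch, with log2 ratios of -0.65, -0.78 and -0.45. The means were 122 ± 9.4 and 188 ± 12 CPM, a log2 fold change of -0.62 with a 95% interval from -0.996 to -0.25 and an adjusted p of 0.210. Ctsh passed the threshold with DESeq2 (adjusted p 0.0270), with the GC offset (0.0261, where 2.58% of genes were called, 0.878% higher and 1.7% lower) and with that offset plus the batch as a block (0.0309, where 3.89% were called, 1.22% higher and 2.68% lower). Over all alternatives the adjusted p of Ctsh ran from 0.0261 to 0.851. The log2 fold change was -0.61 in both fits with the offset.

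Cathepsin S and cathepsin H thus stood on opposite sides, and their ratio in a library needs no scaling. Reads of Ctss per read of Ctsh were 17.5, 16.7 and 14.7 in labelled high replicates 1 to 3 and 7.15, 6.94 and 6.01 in the labelled low replicates. The ratio was higher with the high label in all 3 batches, by 1.28 on the log2 scale on average. This pair was picked after its values were seen, so no test is given. The GC content of the longest transcript was 46.0% for Ctss and 50.1% for Ctsh.

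Ctsk, which encodes the collagen-degrading cathepsin best known from osteoclasts, varied with the batch more than with the label. It lies on chromosome 3 from 95499256 to 95509362 (GRCm38), 17424 bp before Ctss, which lies from 95526786 to 95556403 on the same strand. Ctsk stood at 216, 521 and 366 CPM in labelled high replicates 1 to 3 and at 161, 370 and 206 CPM in their labelled low counterparts. Batch 2 was highest and batch 1 lowest with both labels, and within each batch the labelled high library was the higher, by 0.42, 0.49 and 0.82 on the log2 scale. The log2 fold change was 0.58 with a 95% interval from -0.31 to 1.47 and an adjusted p of 0.503. With the GC offset and the batch as a block the standard error fell from 0.39 to 0.099 and the adjusted p was 0.0377. Over all alternatives the adjusted p of Ctsk ran from 0.0377 to 0.9999. Reads of Ctsk per read of Ctss were 0.107 and 0.124 in the labelled high and low libraries of batch 1, 0.266 and 0.264 in batch 2, and 0.187 and 0.190 in batch 3. The ratio of these neighbouring genes differed between batches by more than between the labels of a batch.

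The protein-coding genes around Ctss gave no call. Within 200 kb of it 10 genes were tested, Ctss and Ctsk among them, and all missed the threshold. Arnt, the partner of hypoxia-inducible factors on the other side of Ctsk, stood at 75.9 ± 3.5 CPM with the high label and 60.7 ± 0.34 CPM with the low label, ranges that did not overlap (log2 fold change 0.32, adjusted p 0.431). Mcl1, a survival factor of the BCL2 family, had a log2 fold change of 0.34 with an adjusted p of 0.541. Adamtsl4, a matrix glycoprotein gene, went the other way with -1.72 (adjusted p 0.159).

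Cathepsin B, a lysosomal endopeptidase and dipeptidase, was abundant with both labels. Ctsb stood at 2403, 1985 and 2051 CPM in labelled high replicates 1 to 3 and at 2061, 1485 and 1935 CPM in their labelled low counterparts. The ranges overlap, although the labelled high library was higher in each batch, and the log2 fold change of 0.23 had a 95% interval from -0.24 to 0.70. Lgmn was the member nearest to no difference, at 967 ± 101 CPM with the high label and 945 ± 128 CPM with the low label. Its log2 fold change was 0.03 with a 95% interval from -0.40 to 0.47, which leaves room for a 1.39-fold higher or a 1.32-fold lower level. Ctsc, the dipeptidyl peptidase that activates granule serine proteases, stood at 727 ± 116 and 640 ± 121 CPM, with log2 ratios of 0.04, -0.23 and 0.76 in batches 1 to 3. Its log2 fold change was 0.18 and turned to -0.14 with the GC offset.

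Cystatin C, the secreted inhibitor of cathepsins S, L, B and H, had the most negative fold change of the 10. Cst3 stood at 166, 145 and 133 CPM in labelled high replicates 1 to 3 and at 237, 140 and 374 CPM in their labelled low counterparts. Labelled low replicate 2 lay among the labelled high libraries, and the log2 ratios within batches were -0.51, 0.06 and -1.50. The log2 fold change was -0.75 (standard error 0.33, adjusted p 0.414). It was -0.19 with the GC offset, -0.35 without labelled low replicate 3 (where 0.469% of genes were called, 0.101% higher and 0.369% lower), and -1.01 with an adjusted p of 0.0378 without labelled low replicate 2. Over all alternatives the adjusted p of Cst3 ran from 0.0378 to 0.9999.

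Cathepsins D and Z, an aspartic protease and a carboxypeptidase, split like Cst3. Ctsd stood at 474, 289 and 288 CPM with the high label, against 452, 202 and 558 CPM with the low label. Ctsz stood at 506, 442 and 393 CPM with the high label, against 589, 361 and 729 CPM with the low label. For both genes labelled low replicate 2 was the lowest of the 6 libraries and labelled low replicate 3 the highest. The log2 fold changes were -0.20 and -0.32 with adjusted p values of 0.785 and 0.564, and they turned to 0.27 and 0.19 with the GC offset. Without labelled low replicate 3 that of Ctsd was 0.10.

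These 3 genes have the highest GC content of the 10, from 56.0% to 57.3%, and the libraries differed in a trend over GC. Slopes were taken of log2 CPM relative to each gene's mean over the 6 libraries. This relative level rose by 0.82 per 10 percentage points of GC in labelled low replicate 3 and by 0.21 in labelled low replicate 1. The slope was -0.46 to 0.03 in the other 4. Over the 10 members the fold change correlated with GC content at a Spearman's rho of -0.75, and over 14123 tested genes one of -0.58, both descriptions over genes of the same libraries. Ctsh lay apart from this order, with a negative fold change at 50.1% GC. Reads of Cst3 per read of Ctsz were 0.328, 0.329 and 0.337 with the high label, and 0.401, 0.388 and 0.512 with the low label. These ranges do not overlap, and the pair was picked after its values were seen. The part of base composition in the difference of Cst3 was not tested by this ratio.

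**Figure D2:**
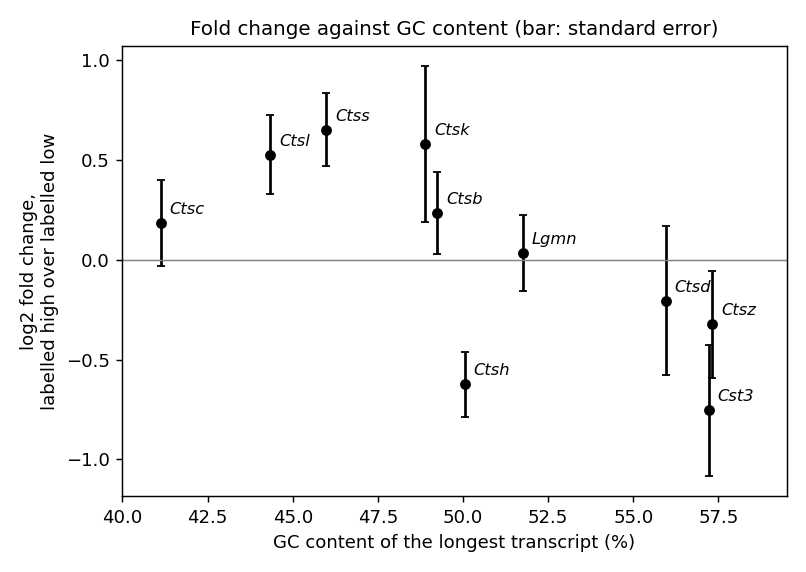
Log2 fold change of labelled high over labelled low (vertical axis, bars are standard errors) against the GC content of the longest transcript in percent, for the 10 genes. Ctsd, Cst3 and Ctsz, at the right, lie below 0 and Ctsh lies below the genes of like GC content.

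**Figure D3:**
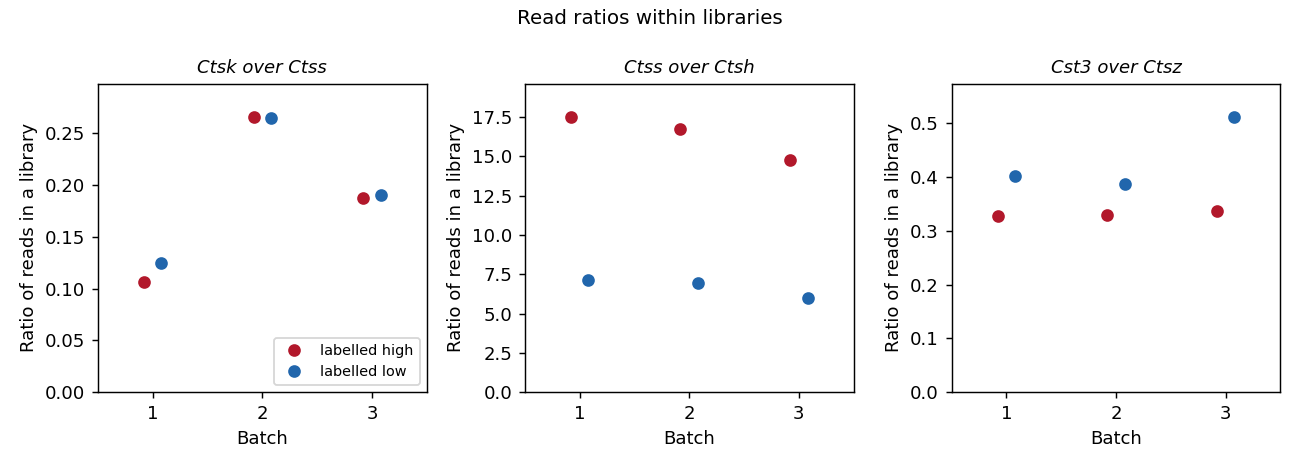
Ratio of reads of 2 genes in the same library (vertical axis, from 0) by batch, for labelled high and labelled low libraries. Ctsk over Ctss follows the batch (0.107 to 0.266) with the labels side by side, while Ctss over Ctsh is higher and Cst3 over Ctsz lower with the high label in every batch.

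The interval that reached farthest was that of Cst3, to a 2.84-fold lower level with the high label, and on the higher side that of Ctsk, to 2.77-fold. Of 10 tested genes of the MHC class II pathway other than these proteases, 8 were called lower with the high label and 0 higher. Over all tested genes 0.354% were called lower and 0.0919% higher. The median log2 fold change was -4.76 against -0.02 over all tested genes. CPM ranges of all 10 lay lower with the high label without overlap, as did those of 9.48% of all tested genes. H2-Ab1, the beta chain of I-A, stood at 25.6 ± 0.80 and 1570 ± 549 CPM. Ifi30, the lysosomal thiol reductase that opens disulfide bonds of antigens, was one of the 2 not called, at 326 ± 27 and 581 ± 258 CPM (adjusted p 0.382). H2-Ob, a chain of the H2-DM inhibitor H2-O, was the other (adjusted p 0.0979), and both were picked here after their values were seen.

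**Figure D4:**
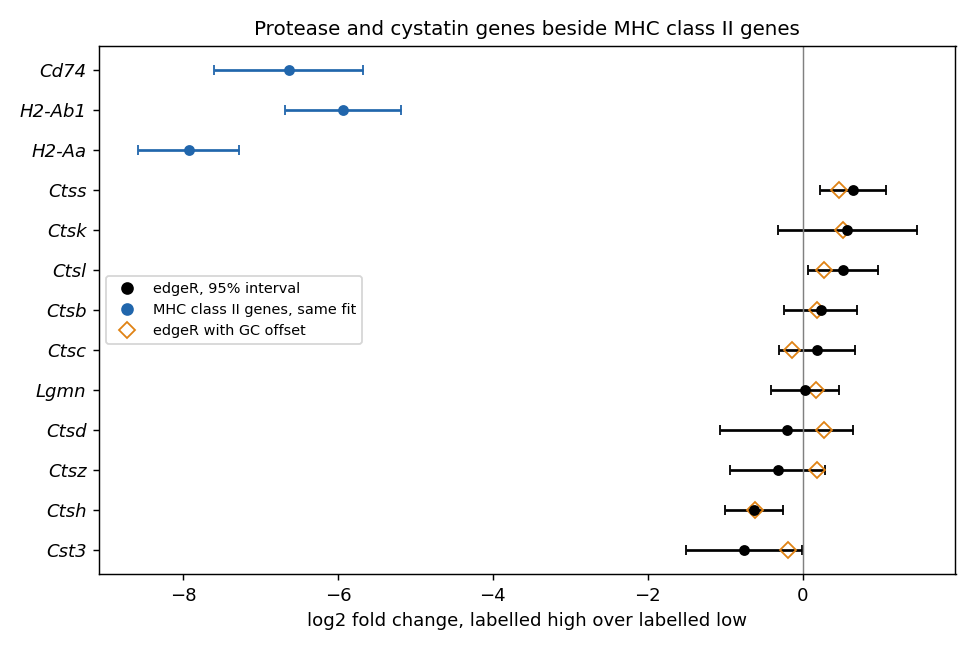
Log2 fold change of labelled high over labelled low (horizontal axis) with 95% intervals by edgeR for the 10 genes and for H2-Aa, H2-Ab1 and Cd74, with diamonds for the 10 genes fitted with the GC offset. The intervals of the 10 genes lie between -1.51 and 1.47, and the MHC class II genes lie at -5.94 and below.

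Per kilobase of merged exons, Ctss was the most abundant of the 10 with both labels, at 1459 ± 28 CPM per kb with the high label and 928 ± 118 with the low label. Lgmn followed with 416 ± 43 and 407 ± 55 CPM per kb, then, in the order of the labelled high libraries, Ctsb with 355 ± 37 and 302 ± 50 and Ctsz with 310 ± 39 and 388 ± 129. Ctsz came before Ctsb with the low label. The ranges of neighbours in this order overlapped with both labels from Lgmn down to the last but one. Ctss stood clear above them, and Ctsh stood clear below at 27.1 ± 2.1 and 41.7 ± 2.7 CPM per kb. Cst3 was 9th with the high label (117 ± 13 CPM per kb) and 5th with the low label (197 ± 93). Merged exon lengths include long alternative ends. They were 6489 bp for Ctsl, 6051 bp for Ctsb, 5808 bp for Ctsc and 4499 bp for Ctsh, against 1358 bp for Ctss. A long length lowers the value on this scale, so how far Ctsh stood below the others depends on it. The lead of Ctss depends on it too. In CPM not divided by length, Ctsb lay above Ctss in every library. Its means were 2146.5 ± 224.5 CPM with the high label and 1827 ± 303 CPM with the low label, against 1981 ± 38 and 1261 ± 160 CPM for Ctss.

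Of the other cathepsins few were high enough to test. Of 3 tested 0 were called. The median log2 fold change was -0.12, and it turned to 0.22 with the GC offset and 0.24 without labelled low replicate 3. Ctso, a little studied cysteine protease, stood at 36.1 ± 3.4 and 25.3 ± 5.6 CPM without overlap, and Ctsa, the protective protein of lysosomal galactosidase, at 466 ± 60 and 602 ± 223 CPM with overlap. Ctsf, which can also cut the invariant chain, stood at 7.29 ± 1.1 and 8.10 ± 3.6 CPM. Ctsg, the granule protease cathepsin G of neutrophils, had 0 reads in all 6 libraries, which allows up to 0.0256 CPM over them.

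Among 17 other cystatins and related inhibitors 4 were tested and 0 were called (median log2 fold change 0.89). Cst7, which encodes the lysosomal cystatin F that holds back cathepsin C, stood at 0.890, 1.25 and 1.39 CPM in labelled high replicates 1 to 3 and at 3.20, 4.17 and 6.78 CPM in their labelled low counterparts. The ranges do not overlap, with a log2 fold change of -1.94 (standard error 0.38, adjusted p 0.0945). In this list 1 gene was called lower with DESeq2, with no filter on low counts, with the GC offset (also plus block) and without labelled low replicate 2. Over all genes these fits called 1.96%, 436 of 27192, 1.7% (2.68% plus block) and 5.45% lower. With DESeq2 and with no filter 1 was also called higher, where 0.856% and 113 of 27192 of all genes were. Ctla2a, a homologue of the cathepsin propeptide that inhibits cathepsin L, went the other way at 2.00 ± 0.25 and 0.564 ± 0.45 CPM (adjusted p 0.194). Reads of Ctla2a and of its near copy Ctla2b can be mixed up. Cstb, the cytosolic cystatin B, stood at 148 ± 22 and 139 ± 16 CPM.

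Of 6 other lysosomal peptidases 1 was called. Napsa, the aspartic protease napsin A, was lower with the high label, at 7.35, 8.33 and 8.33 CPM in its replicates against 40.1, 29.1 and 75.8 CPM (log2 fold change -2.58, standard error 0.35, adjusted p 0.0289). The list gave 0 calls when labelled high replicate 1, 2 or 3 or labelled low replicate 1 was left out. Over all genes those fits called 0 higher and 8 to 14 lower. Scpep1, a serine carboxypeptidase, stood at 136 ± 9.5 and 97.9 ± 12 CPM (adjusted p 0.378). Of 9 genes that tag and sort lysosomal enzymes 0 were called (median -0.15). With DESeq2, the GC offset, or the offset and block, 1 was called higher and 1 lower. Over all genes these fits called 0.856%, 0.878% and 1.22% higher and 1.96%, 1.7% and 2.68% lower. With no filter (436 of 27192 genes lower) or without labelled low replicate 2 (5.45% lower), 1 was called lower. The median turned to 0.06 with the offset and 0.05 without labelled low replicate 3. Igf2r, the receptor that carries tagged cathepsins to endosomes, stood at 277 ± 33 and 164 ± 15 CPM (adjusted p 0.154), and Sort1, the alternative receptor sortilin, at 2.89 ± 0.55 and 8.03 ± 1.6 CPM (adjusted p 0.0864). Of 10 lysosomal regulators and membrane proteins 0 were called (median -0.04). With the GC offset 1 was called higher (0.878% of all genes) and the median was 0.06. Without labelled low replicate 3 the median was 0.11. Fold changes in this list were positive for 5 and negative for 5. Mitf, a relative of TFEB that also drives Ctsk in osteoclasts, stood at 104 ± 8.2 and 74.0 ± 15 CPM (adjusted p 0.405). Lamp1, a main lysosomal membrane protein, stood at 741 ± 50 and 551 ± 53 CPM (adjusted p 0.3996). Tfe3, another relative of TFEB, went the other way at 44.9 ± 3.7 and 79.1 ± 44 CPM, with overlap (adjusted p 0.414).

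Pattern likeness over the 6 libraries was read for each member as the protein-coding genes of at least 10 CPM with the highest Pearson correlation of log2 CPM, among 7537 genes. For Ctsh these were Il1b (0.998) and Il1r2 (0.989), interleukin 1 beta and its decoy receptor. For Ctss they were Serpinb6a (0.997) and Phtf2 (0.995), for Ctsl Topors and Luzp1, and for Ctsk Slc9b2 and Fam192a. For Cst3 they were Rab1b (0.999) and Rhog (0.999), both within 2 percentage points of its GC content. Such closeness in GC did not hold for every member. Ctsb, at 49.23% GC, was most like Kcna3 at 60.25%. Ctsd, at 55.95%, was most like Ikbke at 50.26% and then Bud23 at 56%. The best of so many genes over 6 points is high for any gene, so these values only name like patterns.

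Markers of other cells were measured beside these genes, and in bulk RNA fewer cells of a type and less RNA per cell cannot be told apart. The macrophage list was present in every library, 10 of 10 tested and 0 called (median log2 fold change -0.30), with summed levels of 10193 to 12326 CPM with the high label and 6896 to 12423 CPM with the low label. Fold changes were negative for 6 of the 10 and positive for 4. Adgre1, which encodes F4/80, stood at 344 ± 26 and 184 ± 34 CPM and the lysozyme gene Lyz2 at 6456 ± 562 and 3384 ± 264 CPM, both without overlap. Csf1r, the receptor for macrophage colony-stimulating factor, went the other way at 769 ± 82 and 1106 ± 345 CPM, as did the complement gene C1qb at 1072 ± 206 and 1718 ± 793 CPM, both with overlap. Of the list 2 were called higher with DESeq2 (0.856% of all genes), with no filter (113 of 27192) and with the GC offset (0.878%). Without labelled low replicate 2 there were 2 higher and 2 lower, where 1.71% of all genes were higher and 5.45% lower. The median was -0.04 with the offset, and without labelled low replicate 3 the median was -0.01. Dendritic cell markers were lower with the high label in 4 of 10 tested (median -2.23, 0.354% of all genes called lower), with sums of 158 to 218 CPM against 424 to 590 CPM. Most of these sums came from Itgax (61.3 ± 23 and 304 ± 74 CPM), Irf8 and Cd83, and the last 2 overlapped between the labels. Called were Itgax, Ccl22, Ccr7 and Flt3, of which the last 3 had 12.3, 4.63 and 3.05 CPM with the low label. Leaving out labelled low replicate 1 gave 2 dendritic calls, where 14 of all 14765 tested genes were lower. Without labelled high replicate 1 there were also 2 (9 of 14745), and without labelled high replicate 2 only 1 (8 of 14454). The list gave 6 without labelled low replicate 3 (55 of 14920) and 9 with no filter (436 of 27192). The number over all genes thus changed between these fits too. The part of dendritic cells in the values of Ctsh and Ctss was not tested. Of 8 tested osteoclast markers 0 were called and all 8 had negative fold changes. Their median was -1.02, and -0.48 without labelled low replicate 3. In this list 1 gene was called lower with DESeq2, 4 with no filter, 2 without labelled low replicate 2 and 2 with offset plus block. Over all genes these fits called 1.96%, 436 of 27192, 5.45% and 2.68% lower. The part of osteoclasts in the values of Ctsk was not tested either. The osteoclast enzyme Acp5 stood at 239 ± 71 and 495 ± 197 CPM.

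Other lists gave few calls. Of the tested markers 0 of 6 were called for monocytes, 0 of 4 for neutrophils, 0 of 9 for fibroblasts, 0 of 2 for B cells, 0 of 1 for T and NK cells and 0 of 3 for endothelium. All tested markers of monocytes, fibroblasts, B cells and T and NK cells had negative fold changes (medians -0.71, -0.48, -1.58 and -0.96). For neutrophils 3 of 4 and for endothelium 2 of 3 were positive. With the GC offset 1 monocyte and 1 B cell marker were called lower (1.7% of all genes). Without labelled low replicate 3, 1 monocyte marker was called lower (0.369%). Among mast cell and eosinophil markers 1 of 2 was called lower (Ear2), as were 0.354% of all genes. The other, Kit, had a log2 fold change of -3.19 (adjusted p 0.0791). Siglecf had 15 and 11 reads over the labelled high and labelled low libraries, and Epx and Mcpt8 had 0 in all. Among epithelial markers 1 of 3 was called lower (Cdh1). Krt8 and Krt18 overlapped, with log2 fold changes of -0.32 and 0.005, and Epcam had 0 and 4 reads. Reads were 0 in all libraries for Cd3d, Cd3e and Cd8a of T cells and for Ly6g and Camp of neutrophils. Other markers of these lists had reads: over the labelled high and labelled low libraries S100a8 had 380 and 122, Mmp8 507 and 206, Cd4 62 and 78, and Trac 0 and 20, genes picked after their values were seen. Such read sums are not scaled for depth. In CPM, S100a8 stood at 5.39 ± 1.4 and 2.32 ± 1.5 and Mmp8 at 6.83 ± 4.0 and 4.75 ± 1.7, both with overlap. Cd4 stood at 0.856 ± 0.37 and 1.75 ± 0.38 CPM without overlap. Fibroblasts also express Ctsk, and summed fibroblast markers were 413, 410 and 74.2 CPM in labelled high replicates 1 to 3 and 514, 602 and 132 CPM in their labelled low counterparts. Most of these sums came from the collagen gene Col3a1, at 218 ± 143 and 321 ± 187 CPM. The part of such cells in the values of Ctsk was not tested.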

How the data were processed

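Counts are the authors' deposited raw reads for 55487 Ensembl genes, with 5 summary lines, in a table for each library. Per the submitters' processing notes, FastQC, Trimmomatic, STAR, HTSeq, DESeq2 and GRCm38 were used. Versions, annotation release and strand setting: not given in the sources used here, so reads of antisense or overlapping genes may be mixed. Fdft1 and Nelfcd overlap the ends of Ctsb and Ctsz on the other strand. On the same strand, Gm49369 (0 reads listed) overlaps part of Ctsd and the pseudogene Hmgb1-ps5 (978 reads) lies within Ctss. How many reads of Ctsd or Ctss were set aside as ambiguous is unknown, so their levels and ranks may be too low. Ctsl holds 2 overlapping genes with 0 reads. Reads in no feature (35.2% to 49.4% of listed reads), multiply aligned reads (7.60% to 17.4%) and ambiguous ones (0.324% to 0.864%) stayed out. Libraries per the labels' protocols were rRNA-depleted, stranded total RNA.

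Symbols, lengths and GC content came from GENCODE M21 (55227 genes matched). In R 4.3.3, edgeR 4.0.16 compared the labels by its quasi-likelihood test after the default filter and TMM, adjusted by Benjamini-Hochberg over 14140 genes. Standard errors are the fold change over the square root of F. Intervals are 95% from the moderated degrees of freedom. CPM use TMM-scaled library sizes. Named were the members, H2-Aa, H2-Ab1, Cd74, up to 4 genes of smallest p at 1 CPM or more in each of 20 lists, genes within 200 kb of Ctss and the 2 genes most like each member. Further list genes, such as Irf8, Cd83 and Col3a1, were named outside this rule after their values were seen. The members and lists were chosen with earlier results of these data known. Alternatives were RLE factors, total counts, DESeq2 1.42.0, limma-voom (limma 3.58.1), other filters, the batch block, a GC offset (local regression, span 0.4), removal of rRNA and mitochondrial genes, and left-out libraries.

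The labels give each replicate number as a batch, so the numbers pair the libraries. Deviations of same-numbered libraries from their label means correlated at 0.159, 0.335 and -0.116. Those of differently numbered libraries correlated at -0.489 to 0.353, a range that holds the same-numbered values. Whether libraries with the same label stem from different mice is not stated, so the p-values cover spread among the 3 libraries only, possibly technical spread.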

Additional observations from a re-analysis of the deposited data

How the results depend on the processing

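The fold changes of Ctss, Ctsl, Ctsb, Ctsk, Ctsh and Cst3 kept their sign in all 17 alternatives. Members called, 0 higher and 0 lower in the fit as reported, were 1 higher (Ctss) and 1 lower (Ctsh) with DESeq2, 0 and 1 (Ctsh) with the GC offset, and 1 (Ctsk) and 1 (Ctsh) with the GC offset and replicate block. Leaving out single libraries gave 0 to 1 member higher and 0 to 1 lower, the 1 and 1 being Ctss and Cst3 without labelled low replicate 2. With the replicate block alone 0 members were called, and 1 gene was higher and 40 were lower among all genes. Genes called higher and lower, 13 and 50 as reported, were 8 and 52 with total counts, 121 and 277 with DESeq2, 113 and 436 with no filter, 124 and 240 with the GC offset, 172 and 378 with the offset and the block, and 0 and 28 without batch 3. Leaving out single libraries gave 0 to 246 higher and 8 to 784 lower. Total counts shifted the median log2 fold change of all genes to 0.25 from -0.02. Signs turned for Ctsd with total counts (0.22), the GC offset (0.27), the offset and block (0.29), without batch 3 (0.23) and without labelled low replicate 3 (0.10). They turned for Ctsz with total counts (0.068), the GC offset (0.19), the offset and block (0.19) and without batch 3 (0.00091). They turned for Ctsc with the GC offset (-0.14), the offset and block (-0.14) and without batch 3 (-0.090), and for Lgmn if labelled low replicate 2 (-0.037) or labelled high replicate 1 (-0.0043) was left out. Over the left-out libraries Ctsd ranged from -0.49 to 0.10 and Lgmn from -0.037 to 0.12. The causes were not tested. Depth limits the low genes, such as Cst7, with 16 to 102 reads a library, and not the members.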

Other observations

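Toll-like receptors of endosomes can be cut by cathepsins or legumain. Of 6 tested genes, such receptors and their chaperone, 0 were called (median log2 fold change 0.24). The median was 0.08 without labelled low replicate 3 and turned to -0.04 with the GC offset. Lower calls numbered 1 with DESeq2, no filter, the offset, the offset and block, and without labelled low replicate 2. Over all genes these fits called 1.96%, 436 of 27192, 1.7%, 2.68% and 5.45% lower. Without labelled low replicate 2, 1 was also called higher, as were 1.71% of all genes. Tlr9, the receptor for unmethylated DNA, stood at 12.2, 9.09 and 9.76 CPM in labelled high replicates 1 to 3 and at 39.9, 17.1 and 88.0 CPM in the labelled low replicates, without overlap (adjusted p 0.161 by edgeR). Tlr7, the receptor for single-stranded RNA, lay on the other side, at 148 ± 21 CPM with the high label and 93.0 ± 30 CPM with the low label (adjusted p 0.387). Unc93b1, the chaperone that brings these receptors to endosomes, stood at 172 ± 56 and 263 ± 144 CPM with overlap.

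The granule serine proteases that cathepsin C activates were nearly absent, although Ctsc itself had 2826 to 23889 reads per library. Of 9 such genes 0 reached the filter for the test. Gzmb, granzyme B, had 0 reads over the labelled high libraries and 12 over the labelled low ones, and Cma1, a mast cell chymase, had 21 and 10. These 2 genes were picked after their values were seen. Ctsg, Gzmk and Mcpt8 had 0 reads in all 6 libraries.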
